A study of Homo sapiens with 6 samples.

Results

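ATF4 and 9 genes of the amino acid stress response were followed in HCT116 cells, a human colorectal cancer line, with and without overexpression of cytoglobin (CYGB). The 10 genes were ATF4, DDIT3, TRIB3, ASNS, PHGDH, PSAT1, PSPH, SHMT2, MTHFD2 and SLC7A5. They were chosen by symbol and are 10 of the 40173 genes in the count table, represented by 117 of its 151453 transcripts with a gene. Each group had 3 RNA-seq libraries of total RNA from puromycin-selected stable cells. The control group (MOCK, genotype given as wild type) had received a control lentivirus. The CYGB group had received a lentivirus for constitutive expression of the CYGB coding region fused with FLAG. The selected cells were not described as clones, and no source used here states that the 3 libraries of a group came from separate transductions or cultures, so the p-values measure the spread between these libraries only, which may be technical. No drug, amino acid deprivation or other stress was applied to these samples according to their labels.

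When amino acids run short, uncharged tRNA activates the kinase GCN2, which phosphorylates the initiation factor eIF2. Related kinases do the same in response to misfolded protein in the endoplasmic reticulum, double-stranded RNA and haem deficiency or mitochondrial stress. General translation then slows while translation of the ATF4 mRNA increases, so that much of the control of ATF4 is exerted on protein rather than on mRNA. ATF4 is a bZIP transcription factor that induces genes for amino acid uptake and synthesis, and its target mRNAs are the usual readout of the response in RNA-seq data.

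ATF4 binds DNA with C/EBP-family partners at the C/EBP-ATF response element, which is read as TGATGNAA on either strand. The promoter of ASNS, the classical amino acid response gene, holds this element together with a second nutrient-sensing element, GTTACA. Both are shown here as they stand in this promoter. The stretch lies on the minus strand at chr7:97872450-97872479 (RefSeq, GRCh38.p14), with the 2 elements in capitals.

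ASNS promoter: gcaTGATGAAActtcccgcacgcGTTACAg

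The first element lies 68 bases and the second 48 bases before the RefSeq start site. In GENCODE 29, TGATGAAA lies upstream of the start of 13 of the 16 ASNS transcripts in the count table, across the start of 1 and inside an exon of 2. The starts of those 13 lie from 2 to 17594 bases downstream of TGATGAAA. The most abundant ASNS transcript, ENST00000444334, starts 33 bases downstream of it. Of the 10 genes, 8 had a RefSeq promoter window, from 250 bases before to 50 bases after the start site, and PSPH and SHMT2 had no entry. Within these windows, TGATGNAA was found in ASNS and in none of the other 7 genes. Over all 27305 genes with a window it was found in 4.46%, and over all 35116 promoter windows in 3.62%. GTTACA was found in ASNS and TRIB3. Counted per window rather than per gene, it was in 6.66% of all windows, and 0.498% of windows held both elements. These are matches of letters in a short window, and elements elsewhere in a gene were not searched.

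Library totals lay between 58138393 and 66035266 counts. A chi-square test between any 2 libraries gave 72.9 or more per gene, far beyond counting error. Pairs inside a group gave 77.3 to 96.6 and pairs across groups 72.9 to 98.5. Each library was taken as a separate replicate, though these values cannot tell biological from technical spread. The overexpressed gene followed the labels, since CYGB counts were 10, 28 and 34 for MOCK and 34935, 27681 and 32333 for CYGB cells. The epithelial markers EPCAM, KRT8, KRT18 and CDH1 were present, at 116 CPM (counts scaled to library size) or more in every library, but the fifth, CLDN4, lay at 0.127 to 1.65 CPM. The colon factor CDX2 lay between 14.9 and 19.3 CPM, while VIL1 and CDH17 stayed under 1 CPM. Leukocyte markers stayed under 1 CPM, the 3 endothelial markers summed to at most 1.96 CPM, and of the fibroblast markers only COL1A1 was above that, at 44.3 to 53.7 CPM. The share of mitochondrially encoded counts was 5.73 to 7.15%. In bulk RNA, fewer cells that express a gene and less of its RNA per cell cannot be told apart.

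None of the 10 genes passed the threshold of the study's methods, an unadjusted p of at most 0.01 with a ratio of at least 2 or at most 0.5, or an adjusted p under 0.05. Among all 19987 genes tested with edgeR's quasi-likelihood test, 0.565% passed the threshold of the methods and 0.055% the adjusted p. At these shares, no call among 10 genes is what the background alone would give. An unadjusted p under 0.05 was reached by 1 of the 10, SLC7A5, against 4.54% of all genes, and by 0 of the 10 with DESeq2 and with edgeR's exact test. The log2 fold change, CYGB minus MOCK, was above 0 in 6 genes (48.8% of all genes tested) and below 0 in 4, with a median of 0.12 beside -0.01 over all genes tested. For 8 of the 10 the 95% interval of the ratio lay wholly between 0.5 and 2, and it did not for TRIB3 and MTHFD2. A change of 2-fold or more thus lay outside the interval for 8 genes and inside it for 2.

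**Figure D1:**
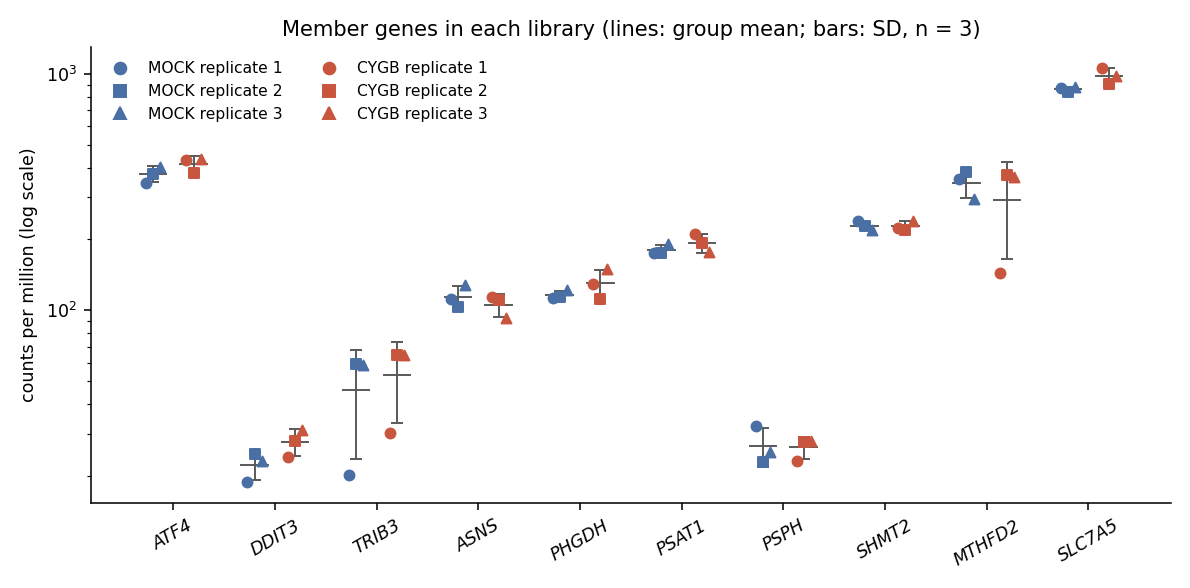
Level of each of the 10 genes in every library, in CPM on a log axis, with MOCK libraries in blue and CYGB libraries in red, the replicate number as the symbol, and the mean and SD (n = 3) as lines. SLC7A5 is the gene whose groups do not overlap, TRIB3 is low in replicate 1 of both groups (20.1 and 30.2 CPM), and MTHFD2 is low in CYGB replicate 1 (144 CPM).

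The regulators come first. ATF4 (ENSG00000128272, chr22:39519695-39522685, plus strand) was at 347, 378 and 405 CPM in MOCK replicates 1 to 3 and at 431, 380 and 437 CPM in CYGB replicates 1 to 3. MOCK replicate 1 was the lowest library and CYGB replicate 3 the highest, but CYGB replicate 2 lay among the MOCK libraries, so the groups overlapped. The means were 376 ± 29.3 and 416 ± 31.2 CPM (SD, n = 3). The log2 fold change was 0.14 (standard error 0.093, 95% interval -0.08 to 0.37), with an unadjusted p of 0.176 and an adjusted p of 0.963 by edgeR's quasi-likelihood test. As a ratio the interval ran from 0.944 to 1.29. These values are of mRNA, and ATF4 protein was not measured in these files.

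DDIT3 (ENSG00000175197, chr12:57516588-57521737, minus strand) encodes CHOP, a bZIP factor induced by ATF4 that takes part in the death of persistently stressed cells. Its level was 18.7, 24.7 and 23.0 CPM in MOCK and 24, 28.1 and 31.2 CPM in CYGB. The lowest CYGB library lay between the MOCK libraries, and the other 2 lay above them. DDIT3 had the largest log2 fold change of the 10 genes, 0.32 (standard error 0.16, interval -0.07 to 0.72), with an adjusted p of 0.963 by edgeR's quasi-likelihood test. DDIT3 overlaps MARS on the opposite strand by 982 bases of GENCODE 29, and MARS had 8077 to 10129 counts per library with a log2 fold change of 0.14. It also overlaps MBD6 on the opposite strand by 1028 bases (154 to 392 counts) and AC022506.1 on the same strand by 2769 bases (1 count per library). Other members overlap annotated genes too, such as MTHFD2 with SLC4A5 on the opposite strand by 1324 bases. The library kit is not described as marking strand, so reads of bases shared with a gene on the opposite strand cannot be divided between the genes.

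TRIB3 (ENSG00000101255, chr20:362835-397559, plus strand) encodes a pseudokinase that is induced by ATF4 and CHOP and limits their activity. It was at 20.1, 59.0 and 58.5 CPM in MOCK and at 30.2, 64.8 and 64.7 CPM in CYGB. Replicate 1 was the lowest library of each group, and the other 4 libraries lay within 58.5 to 64.8 CPM. The 3.23-fold range over the 6 libraries was the widest of the 10 genes, and the within-group SD of log2 CPM, 0.76, was above that of 91.9% of the 9943 genes with a mean of 10 CPM or more. Between groups the log2 fold change was 0.21 with a standard error of 0.49, and the interval of the ratio, 0.510 to 2.63, takes in a change of 2-fold. Without MOCK replicate 1 the log2 fold change was -0.15, without CYGB replicate 1 it was 0.49, and with both replicate 1 libraries left out, an alternative added after these values were seen, it was 0.14. A single transcript, ENST00000217233, held 96.0 to 98.8% of the TRIB3 counts in every library.

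ASNS (ENSG00000070669, chr7:97852118-97872542, minus strand) encodes asparagine synthetase, which makes asparagine from aspartate and glutamine, and carries the promoter elements printed above. It was at 112, 103 and 128 CPM in MOCK and at 114, 110 and 92.5 CPM in CYGB. CYGB replicate 3 was the lowest library and MOCK replicate 3 the highest, and the other 4 lay between 103 and 114 CPM. For ASNS the log2 fold change was -0.12 (standard error 0.13) and the interval of the ratio 0.746 to 1.14, with an adjusted p of 0.963 by edgeR's quasi-likelihood test. The direction was thus opposite to that of the 3 regulators, though none of the 4 passed the test. The counts were spread over several isoforms, with the most abundant transcript, ENST00000444334, at 30.03 to 72.7% of the gene.

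The 3 enzymes that make serine from a glycolytic intermediate act in the order PHGDH, PSAT1 and PSPH. PHGDH (ENSG00000092621, chr1:119648411-119744226, plus strand), the dehydrogenase of the first step, was at 113, 114 and 122 CPM in MOCK and at 130, 111 and 149 CPM in CYGB. The MOCK libraries lay close together, while CYGB replicate 2 was the lowest and CYGB replicate 3 the highest of all 6. PSAT1 (ENSG00000135069, chr9:78297143-78330093, plus strand), the aminotransferase of the second step, was at 175, 175 and 191 CPM in MOCK and at 210, 192 and 176 CPM in CYGB. CYGB replicates 1 and 2 lay above every MOCK library, and replicate 3 lay among them. PSPH (ENSG00000146733, chr7:56011051-56051604, minus strand), the phosphatase of the last step, was at 32.3, 22.7 and 25.1 CPM in MOCK and at 23.1, 27.7 and 28.1 CPM in CYGB. MOCK libraries were both the highest and the lowest for PSPH.

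For PHGDH the log2 fold change was 0.16 (standard error 0.12, interval of the ratio 0.910 to 1.37). For PSAT1 it was 0.09 (standard error 0.092, ratio 0.914 to 1.25), and for PSPH it was -0.03 (standard error 0.17, ratio 0.735 to 1.31). The 3 enzymes of the pathway therefore each differed between groups by less than the test could separate from the spread of the libraries. For PHGDH the direction rested on which transcripts were counted. Its most abundant transcript, ENST00000642021, is annotated as a retained intron and held 28.5 to 59.2% of the gene, and with protein coding transcripts alone the log2 fold change was -0.11 in place of 0.16.

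SHMT2 and MTHFD2 are the mitochondrial enzymes that split serine into glycine and a one-carbon unit and then oxidise that unit on its folate carrier. SHMT2 (ENSG00000182199, chr12:57229327-57234935, plus strand) was at 238, 227 and 218 CPM in MOCK and at 222, 219 and 239 CPM in CYGB. It was the steadiest of the 10 genes, with a 1.10-fold range over all libraries and a within-group SD of log2 CPM of 0.064, below that of all but 7.7% of genes with a mean of 10 CPM or more. Its log2 fold change was -0.01 (standard error 0.071), and the interval of the ratio, 0.883 to 1.12, was the narrowest of the 10.

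MTHFD2 (ENSG00000065911, chr2:74198562-74217565, plus strand) was at 358, 383 and 295 CPM in MOCK and at 144, 373 and 366 CPM in CYGB. CYGB replicates 2 and 3 lay among the MOCK libraries, and CYGB replicate 1 lay below every other library. Its log2 fold change was -0.23 (standard error 0.36), the interval of the ratio 0.464 to 1.56, and the adjusted p by edgeR's quasi-likelihood test 0.975. Without CYGB replicate 1 the log2 fold change was 0.09. The drop in that library was seen in the main transcript, ENST00000394053, at 7229 counts against 14652 to 19710 in the others, and also in ENST00000470592, at 0 counts against 476 to 752. In the same library SHMT2 lay within the range of the MOCK libraries, and PHGDH and PSAT1 lay above it.

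SLC7A5 (ENSG00000103257, chr16:87830023-87869488, minus strand) encodes LAT1, the light chain of the exchanger that imports leucine and other large neutral amino acids. It was at 868, 841 and 877 CPM in MOCK and at 1058, 904 and 982 CPM in CYGB. Every CYGB library lay above every MOCK library, which held for 5.92% of all genes tested. The means were 862 ± 18.7 and 981 ± 76.7 CPM (SD, n = 3). The log2 fold change was 0.18 (standard error 0.075, ratio 1.14, interval 1.00 to 1.29), with an unadjusted p of 0.05 that lay just under that value and an adjusted p of 0.963 by edgeR's quasi-likelihood test. In edgeR's test SLC7A5 therefore did not pass the adjusted threshold, and its interval ends below a 1.5-fold change. One transcript, ENST00000261622, held nearly all of its counts, at 41013, 44470 and 45440 in MOCK and 53452, 45964 and 51594 in CYGB.

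**Figure D2:**
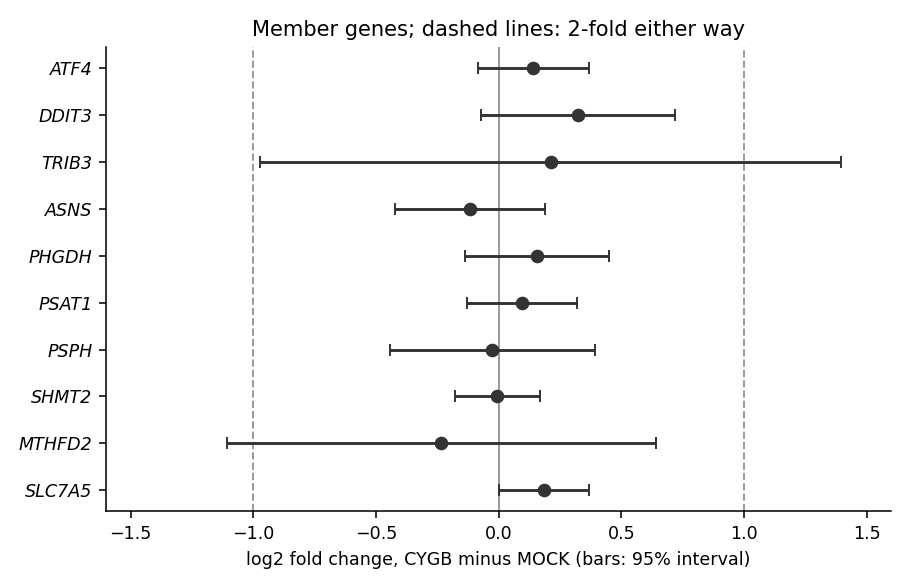
Log2 fold change of each of the 10 genes, CYGB minus MOCK, with its 95% interval from edgeR's quasi-likelihood fit, the solid line at 0 and dashed lines at a 2-fold difference either way. The intervals of TRIB3 and MTHFD2 cross a dashed line, the others lie inside both, and that of SLC7A5 starts at 0.

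Compared per transcript length, as TPM (counts per base of transcript, scaled to a common total), the 10 genes kept nearly the same order in both groups. ATF4, at 383 ± 31.3 TPM in MOCK and 423 ± 19.9 TPM in CYGB, and SLC7A5, at 368 ± 10.6 and 426 ± 30.2 TPM (SD, n = 3), were the most abundant, and their libraries overlapped. SHMT2 followed at 235 ± 16.3 and 237 ± 16.5 TPM, below every library of SLC7A5 and above every library of PSAT1. PSAT1, MTHFD2, ASNS and PHGDH formed a group with means between 108 and 180 TPM in which neighbours overlapped. DDIT3, TRIB3 and PSPH had means between 36.7 and 60.04 TPM, and all libraries of DDIT3 lay below those of PHGDH. Neighbours in the order DDIT3, TRIB3 and PSPH overlapped. Summed over all annotated transcripts, ATF4, SLC7A5 and the enzymes apart from PSPH thus lay above the regulators DDIT3 and TRIB3 in both groups. These sums take in transcripts not annotated as protein coding, such as ENST00000642021 of PHGDH, a retained intron with 28.5 to 59.2% of the gene's counts. In SHMT2, ENST00000557348, annotated as a target of nonsense-mediated decay, held 57.8 to 60.2% in replicates 2 and 3 of both groups. The order for protein coding transcripts alone was not computed.

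At the level of transcripts, 59 of the 117 passed the expression filter, and none was past the threshold of the methods or an adjusted p under 0.05, beside 1.02% and 0.015% of all 66609 transcripts tested. An unadjusted p under 0.05 was reached by 2, against 3.78% of all transcripts. These were ENST00000261622 of SLC7A5, with a log2 fold change of 0.20, and ENST00000554600 of SHMT2, for which the table lists 78, 118 and 79 in MOCK and 25, 45 and 62 in CYGB, with a log2 fold change of -1.06. The groups did not overlap for these 2 and for ENST00000641570 of PHGDH, listed at 21, 80 and 19 in MOCK and 18, 4 and 12 in CYGB, which makes 3 of 59 beside 10.5% of all transcripts. For 3 genes, SLC7A5, TRIB3 and MTHFD2, a single transcript held at least 95.8% of the counts in every library. For PHGDH, PSPH, ASNS and SHMT2 the leading transcript ranged widely between libraries of the same group. That of PSPH, ENST00000395471, held 26.8 to 79.3% of the gene. In ATF4 the leading transcript, ENST00000337304, held 54.8 to 74.1%, with a log2 fold change of 0.26 (standard error 0.19). ENST00000346473 held 65.1 to 74.8% of DDIT3, and ENST00000376588 held 91.5 to 96.3% of PSAT1.

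In SHMT2 the shift was mainly between forms with and without 1 exon. Its transcript ENST00000328923 keeps exon 3 of 12, of 80 bases at chr12:57231481-57231560, and ENST00000557348, annotated as a target of nonsense-mediated decay, skips it. The junctions that tell the forms apart are shown as 30 bases of the plus strand (GENCODE 29 transcripts, GRCh38), with the end of exon 2 at chr12:57230986-57231000 in lower case and the exon that follows in capitals, starting at 57231481 or 57231713.

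exon 3 kept: ctcattgcctcagagAACTTCTGCAGCCGA
exon 3 skipped: ctcattgcctcagagATACTATGGGGGAGC

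The counts of ENST00000557348 were 0, 7225 and 6537 for MOCK replicates 1 to 3 and 0, 6665 and 7432 for CYGB replicates 1 to 3. Those of ENST00000328923 were 8122, 3175 and 3271 for MOCK and 7159, 3474 and 3574 for CYGB. The split thus followed the replicate number and not the group. Over all 18 transcripts in the table with the junction of the kept exon, the share of SHMT2 counts was 76.9, 30.1 and 32.2% in MOCK and 68.0, 32.5 and 31.6% in CYGB. Over the 7 with the junction of the skipped exon, the share was 3.93, 61.0 and 58.8% in MOCK and 0.0356, 60.6 and 60.1% in CYGB. Among transcripts with neither junction, ENST00000557529 held 17.5, 6.78 and 6.24% in MOCK and 28.8, 4.73 and 5.83% in CYGB, so it also rose in replicate 1. The sum over the gene, as given above, varied by only 1.10-fold. No stretch of 150 bases, the length of a read, occurs in ENST00000557348 alone, and 81.3% of its stretches of that length are also in ENST00000328923, and the rule by which the table divides reads between these forms is not given in the sources used here. The shares are those of the deposited table, and whether the cells differed in splicing was not tested.

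**Figure D3:**
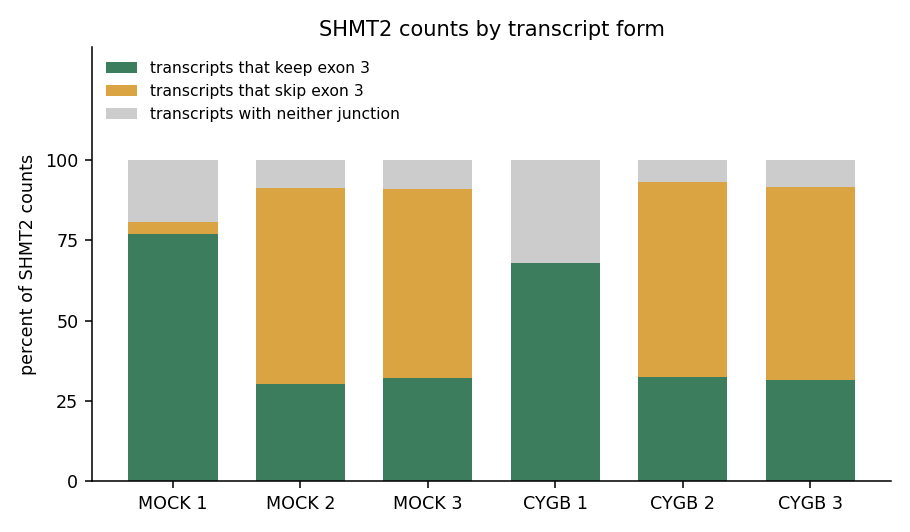
Percent of SHMT2 counts in each library assigned to transcripts that keep exon 3, that skip it, or that have neither junction, with the 3 MOCK libraries on the left and the 3 CYGB libraries on the right. Skipping forms take 58.8 to 61.0% in replicates 2 and 3 of both groups and 3.93% or less in replicate 1.

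Such zeros were not limited to SHMT2. Among the transcripts of the 10 genes, 10 from 3 genes were at 0 in at least 1 library and at 200 counts or more in another. One of PHGDH, ENST00000641597, was listed at 0, 1016 and 1628 for MOCK and at 0, 0 and 1216 for CYGB. The sums per gene are the values on which the comparisons above rest.

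The wider pathway was read from 5 hand-written lists with 86 genes, of which 83 were tested. None passed the threshold of the methods or an adjusted p under 0.05, beside 0.565% and 0.055% of all genes tested. An unadjusted p under 0.05 was reached by 6, beside 4.54%, and the groups did not overlap in 14, beside 11.1% of all genes tested. In 8 of them CYGB was above, beside 5.92%, and in 6 below, beside 5.19%. The median log2 fold change over the 83 was 0.03, and it was above 0 in 55 of them, beside 48.8% of all genes tested. By list this held for 14 of 18 genes of eIF2 signalling, 3 of 6 bZIP partners, 11 of 18 other targets, 8 of 19 serine and folate enzymes and 19 of 22 genes of amino acid transport and synthesis.

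The list of eIF2 signalling held 18 genes, all tested, with a median log2 fold change of 0.05. GCN1, the partner that couples GCN2 to ribosomes, was at 425, 449 and 467 CPM in MOCK and at 472, 471 and 521 CPM in CYGB, with a log2 fold change of 0.12. EIF2S1 and EIF2S3, the alpha and gamma subunits of eIF2, differed by 0.05 and 0.01 on the log2 scale. EIF2S2, the beta subunit, was at 65.1, 59.2 and 49.3 CPM in MOCK and at 181, 40.1 and 39.2 CPM in CYGB, with a log2 fold change of 0.58 (standard error 0.63) and CYGB replicate 1 apart from the other 5 libraries. The kinase GCN2 itself, EIF2AK4, was at 117 to 125 CPM in all 6 libraries, with a log2 fold change of -0.04 (standard error 0.069). Among the kinases, EIF2AK1 (HRI), which senses haem deficiency and relays mitochondrial stress, was at 14.2, 14.5 and 14.6 CPM in MOCK and at 4.09, 5.66 and 12.6 CPM in CYGB. All 3 CYGB libraries lay below the MOCK libraries, but by very different amounts, with a log2 fold change of -0.96 (standard error 0.42) and an adjusted p of 0.963 by edgeR's quasi-likelihood test. Without CYGB replicate 3 it was past the threshold of the methods, with a log2 fold change of -1.56. EIF2S2, EIF2AK4 and EIF2AK1 were named after their values were seen.

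The list of bZIP partners held 7 genes, of which 6 were tested and NUPR1 was too low. CEBPG, which pairs with ATF4, was at 101 to 103 CPM in MOCK and at 86.5 to 109 CPM in CYGB. CEBPB was at 104, 52.6 and 17.7 CPM in MOCK and at 27.6, 22.2 and 15.9 CPM in CYGB, and its MOCK libraries spread over a wider range than the 2 groups differed. Its log2 difference was -1.41 (standard error 0.61, unadjusted p 0.0599, adjusted p 0.963, edgeR's quasi-likelihood test). ATF3, an ATF4-induced factor, was at 24.2, 19.4 and 16.6 CPM in MOCK and at 57.5, 18.0 and 60.5 CPM in CYGB. The fitted difference was 1.17 on the log2 scale with a standard error of 0.46 (adjusted p 0.963, edgeR's quasi-likelihood test), with CYGB replicate 2 among the MOCK libraries. Without MOCK replicate 3, CEBPB was past the threshold of the methods with a log2 fold change of -1.84, and without CYGB replicate 2, ATF3 was, with 1.55.

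Of 20 other targets of ATF4 and CHOP, 18 were tested, with a median log2 fold change of 0.04. DDIT4, an inhibitor of mTORC1, was at 596, 612 and 562 CPM in MOCK and at 401, 597 and 594 CPM in CYGB. ERO1A, an oxidase of the endoplasmic reticulum, was at 389, 131 and 400 CPM in MOCK and at 375, 503 and 407 CPM in CYGB. In each of these 2 genes a single library lay apart from the other 5. TNFRSF10B, the death receptor DR5 induced by CHOP, had a log2 fold change of -0.06. PCK2, the mitochondrial phosphoenolpyruvate carboxykinase, had the smallest unadjusted p of the 86 genes, 0.00527, and an adjusted p of 0.963 by edgeR's quasi-likelihood test. It was at 17.5, 16.6 and 23.8 CPM in MOCK and at 39.5, 37.3 and 28.5 CPM in CYGB, without overlap, with a log2 fold change of 0.86 (standard error 0.20), which is below the ratio the threshold asks for. Without MOCK replicate 3 the value was 1.04 and passed it.

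The list of serine, glycine and folate enzymes held 19 genes, all tested, with a median log2 fold change of -0.01. SFXN1, the mitochondrial serine carrier, and MTHFD1, the cytosolic trifunctional enzyme, differed by -0.00 and 0.02 on the log2 scale, and TYMS, thymidylate synthase, by -0.07. MTHFD1L, the mitochondrial enzyme that releases formate at the end of the route begun by SHMT2 and MTHFD2, was at 112, 115 and 102 CPM in MOCK and at 91.7, 76.1 and 90.9 CPM in CYGB. These groups did not overlap, with a log2 fold change of -0.35 (standard error 0.11, unadjusted p 0.0159, adjusted p 0.963, edgeR's quasi-likelihood test). SDSL, a serine dehydratase-like enzyme, had a log2 fold change of 0.90 with overlapping groups, and CYGB replicate 1 was its highest library, at 24.3 CPM against 7.62 to 13.5 CPM in the others.

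The list of amino acid transport and synthesis held 22 genes, all tested, with a median log2 fold change of 0.10. SLC3A2, the 4F2 heavy chain that pairs with the SLC7A5 protein at the cell surface, was at 181, 99.4 and 174 CPM in MOCK and at 284, 240 and 257 CPM in CYGB. All CYGB libraries lay above the MOCK libraries, as they did for SLC7A5, with a log2 fold change of 0.78 (standard error 0.23, unadjusted p 0.0154, adjusted p 0.963, edgeR's quasi-likelihood test). PYCR1, which completes mitochondrial proline synthesis, was at 208, 206 and 169 CPM in MOCK and at 257, 222 and 245 CPM in CYGB, with a log2 fold change of 0.31. SLC38A2, a sodium-coupled transporter of small neutral amino acids, lay the other way, at 970, 1024 and 983 CPM in MOCK and 916, 951 and 873 CPM in CYGB, with a log2 fold change of -0.12. SLC38A1 and SLC1A5, which carry glutamine, differed by 0.04 and 0.01 on the log2 scale. PCK2, ATF3, MTHFD1L, SDSL, SLC3A2 and PYCR1 are the 6 genes of the lists with an unadjusted p under 0.05, and all but ATF3 were named for that after their values were seen.

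**Figure D4:**
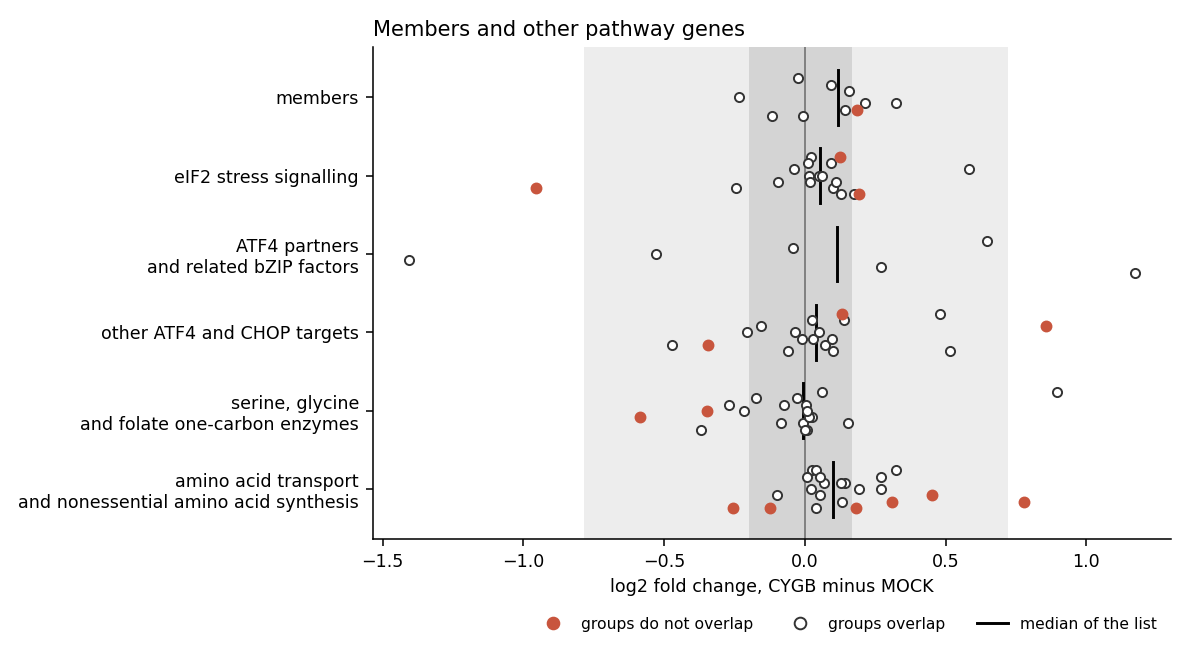
Log2 fold change, CYGB minus MOCK, of the 10 genes (top row) and of the tested genes of each pathway list, with filled red points where the libraries of the groups do not overlap and a bar at the median of each list. The dark and light bands hold the middle 50% and 90% of all genes tested, and 1 of the 10 genes, SLC7A5, is a filled point.

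The genes whose pattern over the 6 libraries was most like that of ATF4 were ZFHX3, ST7, ATXN7L3, EPHX1 and NFIC, by the root mean square difference of centred log2 CPM scaled to unit SD, which was 0.0855 to 0.134. Among 9942 genes ranked this way, PHGDH was at rank 296, SLC7A5 at 582 and DDIT3 at 1201, while ASNS was at 6359, PSPH at 8008 and MTHFD2 at 8210. Of the members, PHGDH and SLC7A5 thus came closest to ATF4 over these libraries and MTHFD2 was farthest. The measure rests on only 6 libraries, which share their processing but not their depth, with totals of 58138393 to 66035266 counts.

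**Figure D5:**
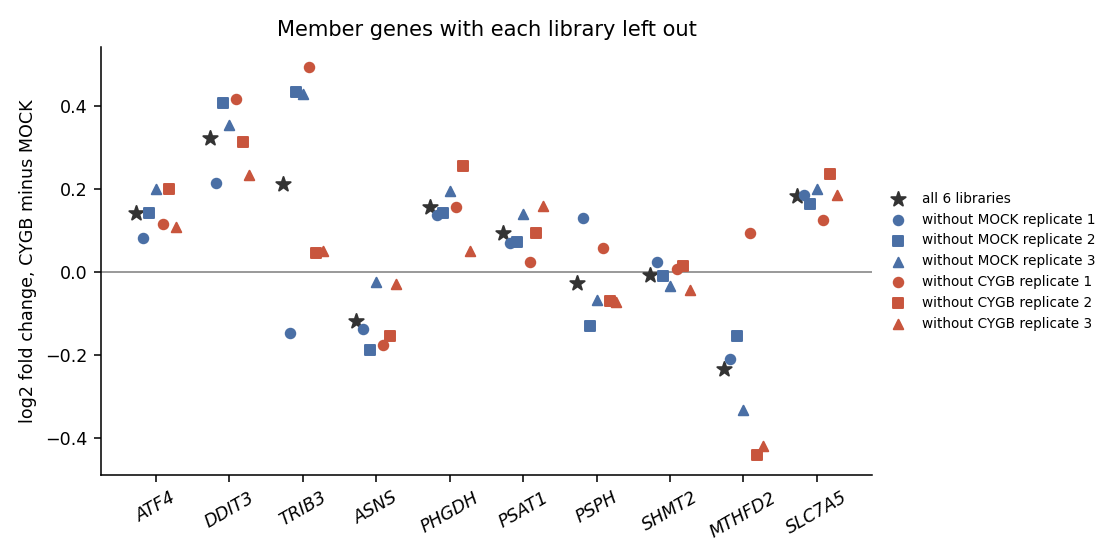
Log2 fold change of each of the 10 genes, CYGB minus MOCK, with all 6 libraries (star) and with each library left out in turn (blue for a MOCK library, red for a CYGB library, symbol for the replicate number). Values of TRIB3 run from -0.15 to 0.49 and of MTHFD2 from -0.44 to 0.09, while SLC7A5 stays between 0.13 and 0.24 and ATF4 between 0.08 and 0.20.

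With each library left out in turn, ATF4, DDIT3, PHGDH, PSAT1 and SLC7A5 stayed above 0 and ASNS stayed below 0. TRIB3, PSPH, SHMT2 and MTHFD2 took both signs, and in TRIB3 and MTHFD2 the sign turned on a replicate 1 library. None of the 10 was past either threshold in any of these fits.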

How the data were processed

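The table deposited by the authors holds unnormalized read counts for each transcript, from paired-end libraries made with the NEB Next Ultra kit. The submitters' processing notes name HISAT, HISAT2, DESeq2 and the build hg19 without giving roles. Of 151393 transcripts found in GENCODE 29, 99.6% have the same position in the table, so coordinates here are those of GRCh38. The counting tool is not given in the sources used here. The 21225 transcripts without a gene, with 18.6 to 19.5% of the counts of each library, did not enter library sizes or tests.

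Counts were summed per gene and analysed in R 4.3.3 with edgeR 4.0.16: filterByExpr (minimum count 10), TMM, then glmQLFit and glmQLFTest of CYGB libraries against MOCK libraries with no replicate block, adjusted by Benjamini-Hochberg over all 19987 genes or 66609 transcripts tested. Intervals are 95% intervals of that fit. The biological coefficient of variation, common to all features, was 36.6% per gene and 78.9% per transcript. CPM are TMM-scaled, and TPM were computed from GENCODE 29 transcript lengths. A gene was called at an unadjusted p of at most 0.01 with a ratio of at least 2 or at most 0.5, as in the study's methods, and separately at an adjusted p under 0.05. DESeq2 1.42.0, other filters and normalizations, the replicate block and leaving out each library were alternatives. The steps were tested on simulated data. Figures were drawn with matplotlib 3.10.9.

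The members and lists were chosen with earlier results of these data known. Named were all members, each member's most abundant transcript, the 3 genes of each list with the highest mean CPM, any gene of a list past a threshold, and the 5 genes most like ATF4 with a mean of at least 10 CPM. Other genes are marked in the text as named after their values were seen. The colon marker CDX1 was not matched in the table. Processed copies of member genes held at most 0.69% of a member's counts.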

Additional observations from a re-analysis of the deposited data

How the results depend on the processing

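The number of member genes past the threshold of the methods and at an adjusted p under 0.05 was 0 in every alternative run. That of member transcripts was 0 to 1 with each library left out. Without MOCK replicate 1 the transcript was ENST00000641947 of PHGDH (log2 fold change 11.6), and without MOCK replicate 2 it was ENST00000557433 of SHMT2 (-10.7). Without MOCK replicate 3 it was ENST00000421626 of PSPH (7.66). With both replicate 1 libraries left out, an alternative added after seeing the data, ENST00000641947 passed again (11.8). In each of these fits all remaining libraries of a group were at 0 for that transcript. The number of pathway genes past the threshold of the methods was 0 to 2. These were PCK2 and CEBPB without MOCK replicate 3, ATF3 without CYGB replicate 2, and EIF2AK1 and GPT2 without CYGB replicate 3. In that fit GPT2 had a log2 fold change of -1.51 against 0.07 in the main fit, so its sign turned too. With protein coding transcripts alone FPGS passed, with a log2 fold change of 1.23 against -0.17 in the main fit, so its sign turned. Over all genes tested, 0.853% passed without MOCK replicate 3, 0.657% without CYGB replicate 2 and 0.627% without CYGB replicate 3. With protein coding transcripts alone the share was 0.568%. Over all transcripts tested it was 1.02% in the main fit, and it is not given here for the other transcript fits. With each library left out, log2 fold changes ran from -0.15 to 0.49 for TRIB3, -0.44 to 0.094 for MTHFD2, -0.13 to 0.13 for PSPH, -0.043 to 0.023 for SHMT2, -0.012 to 0.030 for EIF2S3, -0.12 to 0.050 for CEBPG, -0.25 to 0.0099 for DDIT4, -0.098 to 0.015 for TNFRSF10B, -0.0094 to 0.056 for MTHFD1, -0.031 to 0.041 for SFXN1, -0.12 to 0.11 for SLC1A5 and -0.037 to 0.14 for SLC38A1. With both replicate 1 libraries left out the sign turned for PSPH (0.22), SHMT2 (0.042), MTHFD2 (0.12), EIF2S1 (-0.000904), DDIT4 (0.0206) and TNFRSF10B (0.0205). With protein coding transcripts alone it turned for FPGS, as given above, and for PHGDH (-0.11), PSPH (0.080), SHMT2 (0.022), TNFRSF10B (0.33) and SFXN1 (0.00168). SFXN1 also turned with DESeq2's size factors (0.00108) and with DESeq2 (0.00106). The cause was not tested. Adjusted p-values of the members lay between 0.784 and 1 over the alternatives. Taken across genes, the deviations of same-numbered libraries from their group means correlated at 0.0294, 0.00518 and 0.0310. These values cannot show whether single genes or transcripts share a replicate effect. Some transcripts went with the replicate number, such as ENST00000557348 of SHMT2 and ENST00000454046 of ASNS. In edgeR's quasi-likelihood test the replicate block took the unadjusted p of TRIB3 from 0.677 to 0.114, with an adjusted p of 0.917. That of ASNS moved the other way, from 0.385 to 0.479. With the replicate block 0 members, 78 genes past the threshold and 0 genes at an adjusted p under 0.05 were found, against 113 and 11 without it. Over all genes, DESeq2 gave 263 genes past the threshold and 108 at the adjusted p, edgeR's exact test 256 and 64. With 3 libraries a group and a spread of this size, smaller differences than the intervals allow were not detectable.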

Other observations

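Transcript counts that went with the replicate number in both groups were not limited to SHMT2. In ASNS, ENST00000454046 was at 1422, 57 and 253 counts in MOCK replicates 1 to 3 and at 1499, 220 and 41 counts in CYGB replicates 1 to 3, and was picked after these values were seen. Over all 151453 transcripts with a gene, 5 were at 0 in both replicate 1 libraries with at least 1000 counts in each of the other 4, from ILVBL, KDM2A, LSM14A, NKTR and SHMT2. For replicate 2 there was 1 such transcript, and for replicate 3 there were 7. This count covers exact zeros only, and smaller shifts such as that of ASNS are not in it. At the level of whole genes, GPT2, an ATF4 target that makes alanine from pyruvate and was named after its values were seen, was uneven within groups, at 29.1, 20.6 and 42.3 CPM in MOCK and at 10.1, 11.3 and 75.5 CPM in CYGB.

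The genes that follow were also named after their values were seen. In the proline branch, ALDH18A1, the enzyme of the first step, did not overlap between groups either, at 131, 156 and 154 CPM in MOCK and 162, 174 and 165 CPM in CYGB, with a log2 fold change of 0.18, an unadjusted p of 0.0982 and an adjusted p of 0.963 by edgeR's quasi-likelihood test. The cystine carrier SLC7A11, an ATF4 target whose import of cystine feeds glutathione synthesis, was at 81.5, 80.9 and 84.8 CPM in MOCK and at 107, 81.0 and 68.6 CPM in CYGB, with the MOCK libraries inside the range of the CYGB libraries. The secreted stress factors GDF15 and STC2, both ATF4 targets, had log2 fold changes of 0.10 and 0.13, and CHAC1, which degrades glutathione, one of 0.03, with none past either threshold.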
